A study of Triticum aestivum with 10 samples.

Results

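The transition of the wheat grain from cell division to filling was examined by comparing grains at 300 degree days (DD) after pollination with grains at 200 DD. A degree day counts temperature accumulated over time, so that stages can be matched between seasons. The comparison took 4 of the 10 arrays of the series, 2 per stage, and the 250 DD arrays were used only to ask how far each difference had come by the middle stage and to widen the estimate of spread in one fit described below. A probe set (the group of oligonucleotides that reads 1 transcript) was a member where its value was at least 4 on 2 or more of the 4 arrays. This kept 22465 of 61179 probe sets.

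The series followed grains of untreated hexaploid bread wheat, cultivar Récital, grown in a greenhouse and sampled at 5 stages with 2 arrays each. The study assigns 200 and 250 DD to cell division and 300 DD to filling, and describes its material as endosperm and embryo. Replicate 1 came from the 2006 harvest, which the labels place at 290 DD for the 300 DD stage, 185 DD for the 200 DD stage and 230 DD for the 250 DD stage. Replicate 2 came from the 2004 harvest, placed at 300, 200 and 250 DD, so each sample of 2006 was the earlier of its pair. The study's methods give degree days that differ slightly from these labels and keep that order. The 2 arrays of a stage therefore differ in harvest and in age, which cannot be told apart, and nothing in the labels says how many plants were pooled for an array.

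In the cereal grain the endosperm first multiplies its cells, a phase that needs new histones to package the copied DNA. It then fills these cells with starch, gluten proteins and small defence proteins such as enzyme inhibitors and thionins. The embryo and the aleurone, the living outer layer of the endosperm, later make protective proteins that prepare them for drying, while the green layers around the endosperm carry out photosynthesis for part of development. The study's description of its material does not name these green layers, so how much of them the samples held is not known. In RNA of mixed grain tissues a change in the number of cells of a type and a change in RNA per cell cannot be told apart.

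No probe set passed the test on the 4 arrays alone. In the limma fit with harvest as a block, which leaves 1 residual degree of freedom, 0 probe sets were called higher and 0 lower at 300 DD at an adjusted p under 0.05 (0.0% in each direction). The smallest adjusted p was 0.0795, and 4167 probe sets (18.5%) had an unadjusted p under 0.05. The differences below are therefore given first as values in each harvest. Beside them stands the adjusted p of a second limma fit, which takes its spread from the 8 arrays of 200 to 500 DD with the same block. That fit is an alternative to the one on 4 arrays, and "passed" below always refers to it.

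With the spread of 8 arrays, 473 probe sets (2.11%) were called higher and 484 (2.15%) lower at 300 DD, together 4.26%, with a smallest adjusted p of 0.00215. These calls hung on single arrays. Without 300 DD replicate 2 there were 15 higher and 1 lower, without 300 DD replicate 1 there were 26 and 27, without 200 DD replicate 1 there were 32 and 10, and without either or both 250 DD arrays there were 174 and 169. Leaving out 200 DD replicate 2 gave 535 and 255.

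A rule with no test counted probe sets whose difference was at least 1 on the log2 scale in the same direction in both harvests. It found 702 higher (3.12%) and 806 lower (3.59%) at 300 DD, against 258 that differed by at least 1 in opposite directions. Which direction was the more frequent depended on the scaling, with 790 higher and 712 lower after quantile normalization and 789 and 717 after centring. At a difference of at least 2 in each harvest, 244 were higher and 189 lower, against 6 in opposite directions. Of the 957 probe sets that passed, 915 (95.6%) were among the 1508 of this rule, of which they made up 60.7%. The differences of the 2 harvests correlated at 0.601 over the probe sets tested, and probe sets of 1 array do not replicate each other. One sign in both harvests was seen for 66.9% of them.

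**Figure D1:**
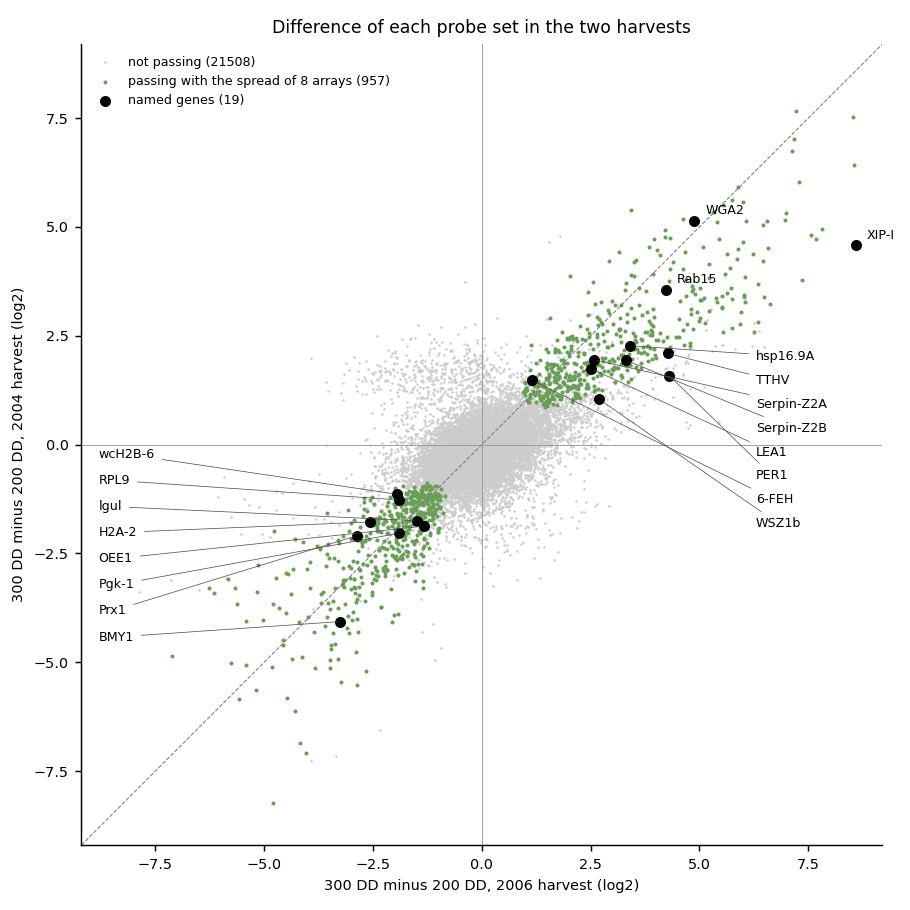
Difference between 300 and 200 DD on the log2 scale in the 2006 harvest (horizontal axis) and the 2004 harvest (vertical axis) for 22465 probe sets. Each point is 1 probe set, green where it passed with the spread of 8 arrays (957) and black for the 19 named genes, and the dashed line marks equal differences. The green points lie in the upper right and lower left, and the cloud of grey points at the upper left and lower right holds probe sets with opposite differences.

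Only 1273 probe sets of the array were paired with a gene, and 143 of those tested had a gene name. Among the named genes, 11 were higher and 8 were lower at 300 DD by at least 1 in both harvests, and of these 19 genes 13 passed. They were picked for the size of their differences, so this count is a description only. The 11 higher genes encode defence proteins, protease inhibitors, drying and stress proteins, and a fructan hydrolase. The 8 lower genes encode a starch-degrading enzyme, a glycolytic enzyme, a glyoxalase, 2 histones, a photosystem protein and a ribosomal protein, beside Prx1.

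The largest difference among named genes was that of XIP-I, a protein that inhibits the xylanases with which fungi attack cell walls. Its value was 13.42 in 2006 and 13.71 in 2004 at 300 DD, against 4.83 and 9.14 at 200 DD. The values at 300 DD lay within 0.3 of each other while those at 200 DD were over 4 apart, so the difference was 8.59 in 2006 and 4.58 in 2004. The mean difference of the 2 harvests was 6.58 ± 1.04 (standard error of the limma fit on 8 arrays). This and the later standard errors come from that fit and are not those of the 2 harvest differences. The adjusted p was 0.0268 in the limma fit on 8 arrays and 0.140 in that on 4. The other probe set of the gene gave 13.04 and 13.41 at 300 DD, against 5.48 and 8.60 at 200 DD.

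WGA2 encodes a wheat germ agglutinin, a chitin-binding lectin of the embryo. It stood at 6.79 in 2006 and 7.40 in 2004 at 300 DD, against 1.91 and 2.25 at 200 DD. Both arrays of 200 DD were below 4, where the array gives background, so the size of the difference (5.01 ± 0.44, limma adjusted p = 0.00773 with 8 arrays) was not measured down to a true level. WGA2 met the minimum value through the 300 DD arrays alone, so it had to be higher there and its p is no support. Thionins are a family known for small toxic peptides, though nothing here shows whether the product of the thionin gene TTHV is toxic. TTHV had 13.31 and 13.38 at 300 DD, against 9.04 and 11.28 at 200 DD. Again the 300 DD arrays were close to each other and the 2006 array of 200 DD was the lowest. The purothionin genes were already high at 200 DD: THI1.1 gave 15.29 and 15.33 at 300 DD, against 15.12 and 15.13 at 200 DD on one of its probe sets. Of the 11 tested probe sets of thionins, agglutinin and other defence proteins, 4 were called higher and 0 lower, against 2.11% and 2.15% of all tested. The 4 were both probe sets of XIP-I, TTHV and WGA2, the last selected as just described. With no replicate block TTHV and the brighter XIP-I probe set lost their calls (limma adjusted p = 0.0815 and 0.0652 with 8 arrays). The other XIP-I probe set kept its call (0.0425), as did WGA2, whose p is no support. The median difference of the list was 0.86, against -0.09 over all probe sets tested.

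Protease and amylase inhibitors block digestive enzymes of insects and microbes. All 11 of their probe sets had a higher value at 300 DD in both harvests, against 26.6% of all probe sets tested, with a median difference of 0.66. These 11 read 8 genes, some through shared probes, so they are not 11 separate measurements. Of them 3, all serpins, passed as higher, against 2.11% of all tested. With no replicate block none of these calls held in the 8-array fit. The limma adjusted p was then 0.102 for Serpin-Z2B, 0.126 for Serpin-Z2A and 0.35 for Serpin-Z1C. Serpins are inhibitors that trap a protease by a change of shape. Serpin-Z2B had 11.11 in 2006 and 11.47 in 2004 at 300 DD, against 7.79 and 9.54 at 200 DD (difference 2.63 ± 0.44, limma adjusted p = 0.0322 with 8 arrays). Serpin-Z2A had 10.42 and 10.95 at 300 DD, against 7.84 and 9.01 at 200 DD, and Serpin-Z1C had 7.67 and 8.34 at 300 DD, against 6.21 and 7.49 at 200 DD. For each of these serpins both 300 DD values lay above both 200 DD values, though narrowly for Serpin-Z1C (7.67 against 7.49). The share of all probe sets for which this held was not counted, so it is a description only. A further serpin, WSZ1b, differed by 2.70 in 2006 and 1.04 in 2004 and did not pass (limma adjusted p = 0.0693 with 8 arrays). The amylase and trypsin inhibitor genes named ATI (LOC543281 and LOC543286) were near the top of the scale at both stages, and their 4 probe sets differed by 0.14 to 0.37.

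Late embryogenesis proteins bind water and protect cells during drying. Rab15, a dehydrin whose family responds to abscisic acid, had the smallest adjusted p of the named genes. Its value was 7.05 in 2006 and 6.37 in 2004 at 300 DD, against 2.81 on both arrays of 200 DD, so it too was below 4 at the earlier stage. The difference of 3.90 ± 0.23 had a limma adjusted p of 0.00367 with 8 arrays and 0.0812 with 4, and of the 19 named genes it alone passed whichever of the 8 arrays was left out. It met the minimum value only through the 300 DD arrays, however, so it was bound to be higher there. LEA1 had 11.02 and 11.29 at 300 DD, against 8.52 and 9.54 at 200 DD. LEA1 was above the minimum on all 4 arrays and passed (limma adjusted p = 0.0155 with 8 arrays). With no replicate block its limma adjusted p with 8 arrays was 0.0698. Of the 10 probe sets of this list only 4 reached the minimum, and the other 3 are of Rab15 and did so through the 300 DD arrays alone, so no count or median of the list is read as a result. The Em and EM genes, markers of the maturing embryo, stayed mostly below the minimum: the highest probe set of Em had 4.48 and 3.14 at 300 DD, against 2.16 and 2.17 at 200 DD.

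PER1 is known in barley as a peroxiredoxin of the embryo and aleurone. It had 13.04 in 2006 and 12.98 in 2004 at 300 DD, against 8.73 and 11.40 at 200 DD. The difference was 4.31 in 2006 and 1.58 in 2004, and the mean of 2.95 ± 0.74 did not pass (limma adjusted p = 0.0857 with 8 arrays). The small heat shock protein gene hsp16.9A likewise had 7.84 and 8.43 at 300 DD, against 4.43 and 6.16 at 200 DD, and did not pass (limma adjusted p = 0.0625 with 8 arrays).

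**Figure D2:**
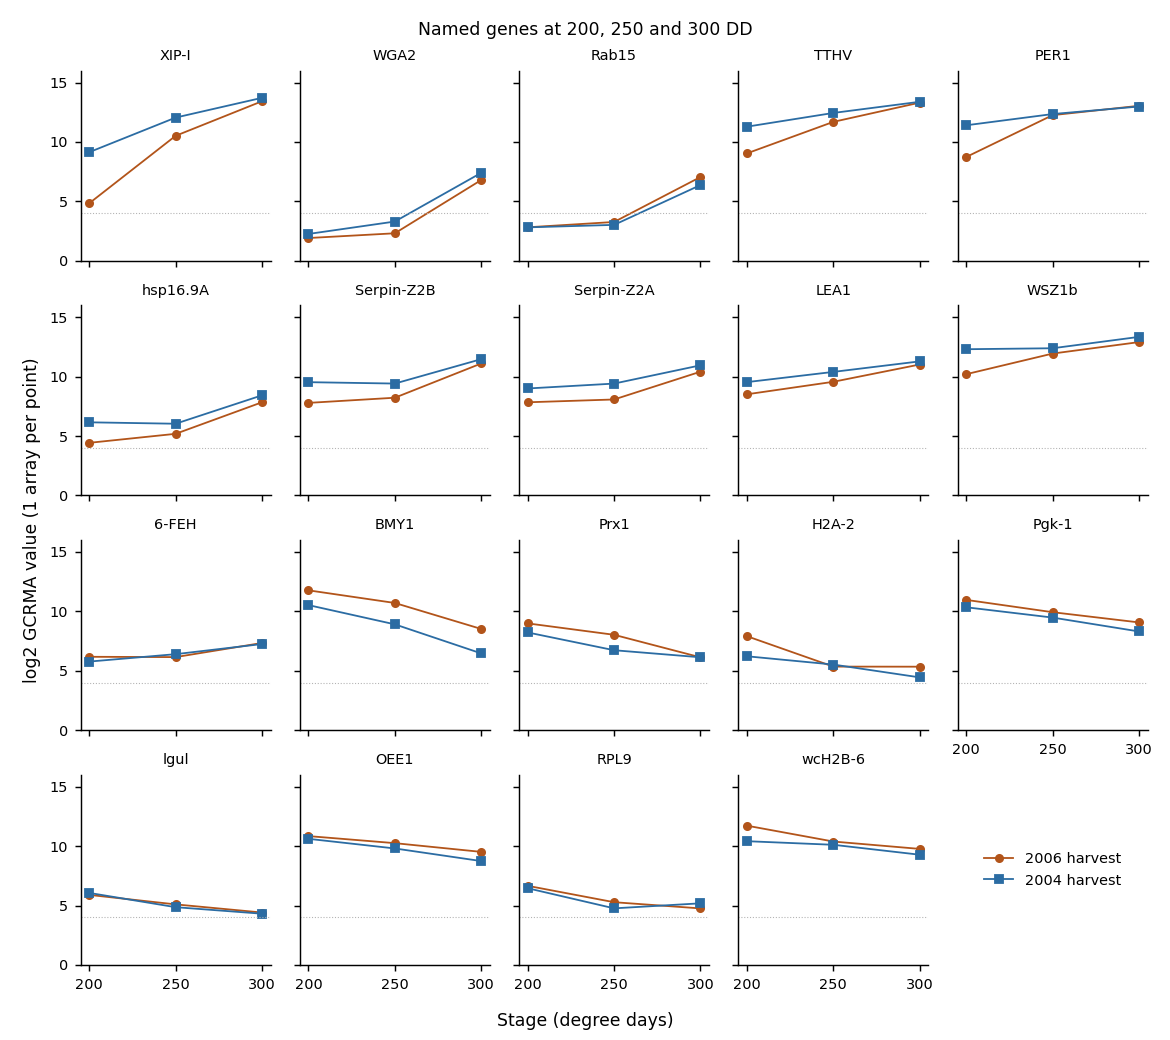
Log2 GCRMA value of the 19 named genes (vertical axis) at the nominal stages of 200, 250 and 300 DD (horizontal axis), 1 array per point, with circles for the 2006 and squares for the 2004 harvest and a dotted line at the minimum value of 4. XIP-I, TTHV and PER1 had most of their difference by 250 DD, while WGA2, Rab15, hsp16.9A and the Z2 serpins stayed near their 200 DD value until 250 DD.

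The enzymes of starch, sucrose and fructan went both ways, with 2 of 11 tested probe sets called higher and 2 lower. Over all probe sets tested these shares were 2.11% and 2.15%. BMY1, a beta-amylase, which cuts maltose from starch chains, had the largest lower difference of the named genes. It stood at 8.52 in 2006 and 6.47 in 2004 at 300 DD, against 11.77 and 10.53 at 200 DD. Both arrays of 300 DD lay at least 2 below both arrays of 200 DD, and the difference was -3.66 ± 0.39 (limma adjusted p = 0.012 with 8 arrays). Pgk-1, a phosphoglycerate kinase of glycolysis and carbon fixation, had 9.07 and 8.31 at 300 DD, against 10.97 and 10.35 at 200 DD (limma adjusted p = 0.0141 with 8 arrays). The 2 higher calls were both of 6-FEH, a fructan 6-exohydrolase, which breaks down fructan reserves. Its probe sets differed by 1.32 and 2.39, the second with 7.22 and 7.89 at 300 DD, against 4.84 and 5.49 at 200 DD. With no replicate block this second probe set kept its call (limma adjusted p = 0.0449 with 8 arrays). The other 6-FEH probe set, BMY1 and Pgk-1 lost theirs (0.0571, 0.102 and 0.0569).

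Of starch synthesis itself, the genes AGP-S and GBSS gave no call. AGP-S belongs to the enzyme that activates glucose for starch synthesis (small subunit of ADP-glucose pyrophosphorylase). Its value was 14.32 in 2006 and 14.06 in 2004 at 300 DD, against 14.37 and 14.29 at 200 DD. These values were close to the top of the scale at both stages, which limits what their likeness can show. GBSS, the granule-bound synthase that makes amylose, had 12.72 and 12.91 at 300 DD, against 11.59 and 12.46 at 200 DD. Neither passed (limma adjusted p = 0.756 and 0.175 with 8 arrays), and both were chosen for the text after their values were seen. FBP, a fructose bisphosphatase, differed by -0.90 on its brighter probe set and did not pass.

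Gluten storage proteins, the bulk protein of the filled endosperm, gave 0 calls among 16 tested probe sets, against 4.26% of all tested in either direction. Their median difference was 0.32, and it was 0.47 in 2006 and 0.08 in 2004. Over the 7 whose ID marks no shared probes it was -0.0019, so the list has no settled direction. Several were close to the top of the scale at both stages, such as a gli-2 gliadin (LOC543210) with 15.03 and 14.98 at 300 DD, against 14.44 and 14.92 at 200 DD. A low molecular weight glutenin (LMW-GS) had 14.18 and 14.18 at 300 DD, against 12.08 and 13.63 at 200 DD. Here too the 2006 array of 200 DD was the low one and the other 3 arrays lay within 0.6 of each other. The gli-2 gliadins LOC543212 and LOC543385 differed by 0.84 and 1.03 and did not pass.

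**Figure D3:**
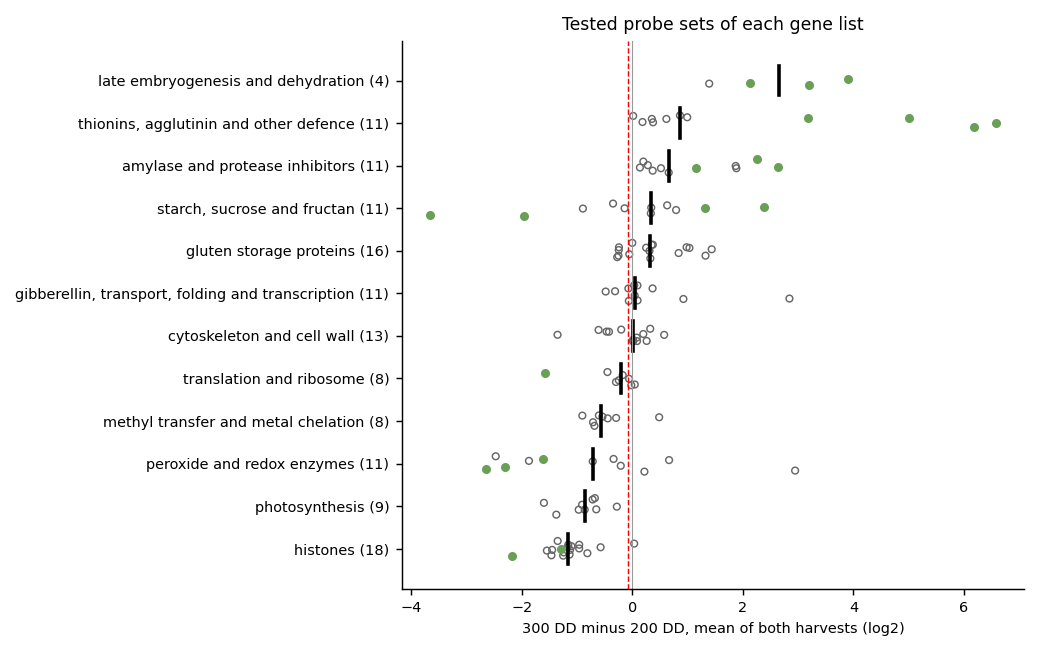
Mean difference between 300 and 200 DD on the log2 scale (horizontal axis) for the tested probe sets of 12 gene lists (rows, number tested in parentheses). Filled green points passed with the spread of 8 arrays and open points did not, black bars are list medians, the grey line marks 0 and the red dashed line is the median of all probe sets tested (-0.09). Defence and inhibitor lists lie to the right, as does the late embryogenesis list, of which 3 of 4 probe sets met the minimum value only at 300 DD, histones, photosynthesis and redox enzymes to the left.

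Histones had lower values at 300 DD. Of 18 tested probe sets, 2 passed as lower, against 2.15% of all probe sets tested, and 0 as higher. In both harvests 16 had a lower value, against 40.2% of all tested, and the median difference was -1.17. The median was -1.78 in 2006 and -0.49 in 2004, so most of the difference lay in the 2006 harvest. H2A-2 had 5.35 in 2006 and 4.45 in 2004 at 300 DD, against 7.91 and 6.22 at 200 DD (difference -2.17 ± 0.42, limma adjusted p = 0.0469 with 8 arrays). The other call was one of 6 probe sets of H2A-9, with 10.36 and 10.05 at 300 DD, against 11.90 and 11.11 at 200 DD. Neither call held in the 8-array fit with no replicate block (limma adjusted p = 0.131 for H2A-2 and 0.139 for H2A-9). The H2B gene wcH2B-6 had 9.77 and 9.28 at 300 DD, against 11.72 and 10.42 at 200 DD, and did not pass (limma adjusted p = 0.0715 with 8 arrays). For wcH2B-8 the brightest probe set had 10.10 and 10.24 at 300 DD, against 11.93 and 10.61 at 200 DD, a difference of -1.83 in 2006 and -0.37 in 2004. Histone genes are near-identical copies, and most of these probe sets can read several of them, so the 18 are not 18 separate measurements.

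Photosynthesis genes had lower values as a list, with 0 calls, where 4.26% of all probe sets tested were called in either direction. Only 9 of 34 probe sets reached the minimum value, and 8 of the 9 were lower in both harvests, against 40.2% of all tested, with a median difference of -0.86. These 9 read 5 genes, several of them the gene rbcl and some through shared probes, so they are not 9 separate measurements. The brightest probe set of rbcl differed by -0.65. OEE1, a protein of the oxygen-evolving side of photosystem II, had 9.52 in 2006 and 8.74 in 2004 at 300 DD, against 10.85 and 10.62 at 200 DD. Its limma adjusted p of 0.0503 with 8 arrays just missed the threshold. OEE2 differed by -0.97 on its brighter probe set, petC, the Rieske protein of the cytochrome complex, by -0.86 and PRK, the phosphoribulokinase of carbon fixation, by -0.68.

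Among redox enzymes, 3 of 11 tested probe sets passed as lower and 0 as higher, against 2.15% and 2.11% of all probe sets tested. They were both probe sets of lgul, a glyoxalase that removes methylglyoxal, and one of Prx1. The brighter probe set of lgul had 4.41 in 2006 and 4.31 in 2004 at 300 DD, against 5.90 and 6.06 at 200 DD, close to background at the later stage. The other met the minimum value through the 200 DD arrays alone, so it had to be lower at 300 DD. Prx1 had 4.66 and 4.36 at 300 DD, against 7.50 and 6.81 at 200 DD on the probe set that passed. Its brighter probe set differed by -2.47 and did not pass (limma adjusted p = 0.088 with 8 arrays). Trx-M, a thioredoxin of the chloroplast, differed by -0.72 and did not pass.

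The remaining lists together gave 1 call, where 4.26% of all probe sets tested were called in either direction. Of the 8 translation probe sets 1 passed, RPL9, a ribosomal protein with 4.76 and 5.19 at 300 DD, against 6.66 and 6.46 at 200 DD (limma adjusted p = 0.0362 with 8 arrays). That call did not hold in the 8-array fit with no replicate block (limma adjusted p = 0.0526). The initiation factors Eif4B, eIF4E and eIF-2-beta differed by -0.45, -0.30 and -0.18 and did not pass. In the list of cytoskeleton and cell wall, with 0 calls among 13 and a median of 0.01, the differences on the brightest probe set of each gene included -1.35 for XTH, a xyloglucan endotransglucosylase, -0.61 for the tubulin tubb3, 0.32 for tubb1 and 0.26 for tubb2. In methyl transfer and metal chelation, with 0 calls among 8 and a median of -0.57, PEAMT1 differed by -0.91, SAHH by -0.71, DMAS1 by -0.69 and COMT1 by 0.48. In the mixed list of gibberellin, transport, folding and transcription genes, with 0 calls among 11 and a median of 0.04, ALMT1-1 differed by 0.92 and Hmgb3 by -0.31. WZF1, a zinc finger gene, went opposite ways in the 2 harvests, with 6.40 in 2006 and 7.82 in 2004 at 300 DD, against 4.13 and 9.37 at 200 DD.

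The annotated probe sets were a small and uneven sample of the array. Of the 848 tested probe sets matched to a gene in RefSeq, 4.83% passed as higher and 1.89% as lower, against 2.11% and 2.15% of all tested. The largest differences that passed belonged to probe sets with no gene name. The highest of them had 11.98 in 2006 and 12.45 in 2004 at 300 DD, against 3.46 and 4.94 at 200 DD, and a second probe set of the same transcript cluster differed by 7.49. On the lower side, the first had 8.21 in 2006 and just below 4 in 2004 at 300 DD, against 13.01 and 12.23 at 200 DD. The next differed by -5.98, with 3.73 and 2.44 at 300 DD, against 10.85 and 7.29 at 200 DD. This next one met the minimum value through the 200 DD arrays alone, so it had to be lower at 300 DD. Among probe sets with a locus number in place of a name, LOC542908 had 10.30 in 2006 and 10.06 in 2004 at 300 DD, against 3.01 and 4.03 at 200 DD, while LOC542877 had 8.54 and 3.25 at 300 DD, against 12.56 and 10.33 at 200 DD. For LOC542877 the 2004 array of 300 DD was far below that of 2006. These 2 were chosen after their values were seen. Of the 473 that passed as higher, 106 were below 4 on both arrays of 200 DD, and of the 484 that passed as lower, 95 were below 4 on both arrays of 300 DD, so they met the minimum only where they were high and the size of their differences is limited by background.

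Each difference was then set against the value at 250 DD. The share was the 250 minus 200 DD difference divided by the 300 minus 200 DD difference of the same harvest, and a share of at least 0.5 was taken as past the midpoint. This is the midpoint of the difference, not of the time between samples. By the labels the 2006 samples were at 185, 230 and 290 DD, so the middle one came before the middle of its interval. A steady change would thus fall short of 0.5 in 2006. By the slightly different degree days in the study's methods, the middle sample of 2004 also came before the middle of its interval. A steady change would then fall short of 0.5 in both harvests. Both differences contain the 200 DD array, so an error of that array enters both. Among the 473 probe sets higher at 300 DD, 102 (21.6%) were past the midpoint at 250 DD in both harvests, 216 (45.7%) in neither and 155 in 1 of them, and the median share was 0.456 in 2006 and 0.436 in 2004. Among the 484 lower ones, 108 (22.3%) were past it in both harvests, 205 (42.4%) in neither and 171 in 1 of them, with median shares of 0.454 and 0.437. The medians of the 2 directions were nearly equal in each harvest. When the 250 minus 200 DD difference of one harvest was divided by the full difference of the other, the median share of the higher set was 0.546 for the 2006 numerator and 0.313 for the 2004 numerator, and that of the lower set was 0.452 and 0.440. Counted that way, 40 of the 473 and 87 of the 484 were past the midpoint in both. The 250 DD arrays entered the spread behind these calls, so probe sets whose harvests were at odds there were less likely to pass. By the rule of 1 in both harvests, which left those arrays out, 173 of 702 higher probe sets (24.6%) were past it in both. A further 266 (37.9%) were past it in neither, and of 806 lower ones it was 175 (21.7%) and 283 (35.1%).

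The named genes lay on either side of the midpoint. Of the 11 higher genes, XIP-I, TTHV and PER1 were past it in both harvests, with shares of 0.661 and 0.636 for XIP-I, 0.621 and 0.552 for TTHV and 0.817 and 0.598 for PER1 in 2006 and 2004. XIP-I had 10.51 in 2006 and 12.05 in 2004 at 250 DD. WGA2, Rab15, hsp16.9A, Serpin-Z2B, Serpin-Z2A, LEA1 and 6-FEH were past it in neither. The shares of Rab15 were 0.106 and 0.058, and at 250 DD it was still below 4 on both arrays. Of the 8 lower genes, lgul and RPL9 were past it in both harvests, BMY1 and OEE1 in neither, and Prx1, H2A-2, Pgk-1 and wcH2B-6 in 1 of them. H2A-2 had a share of 0.997 in 2006 and 0.392 in 2004.

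**Figure D4:**
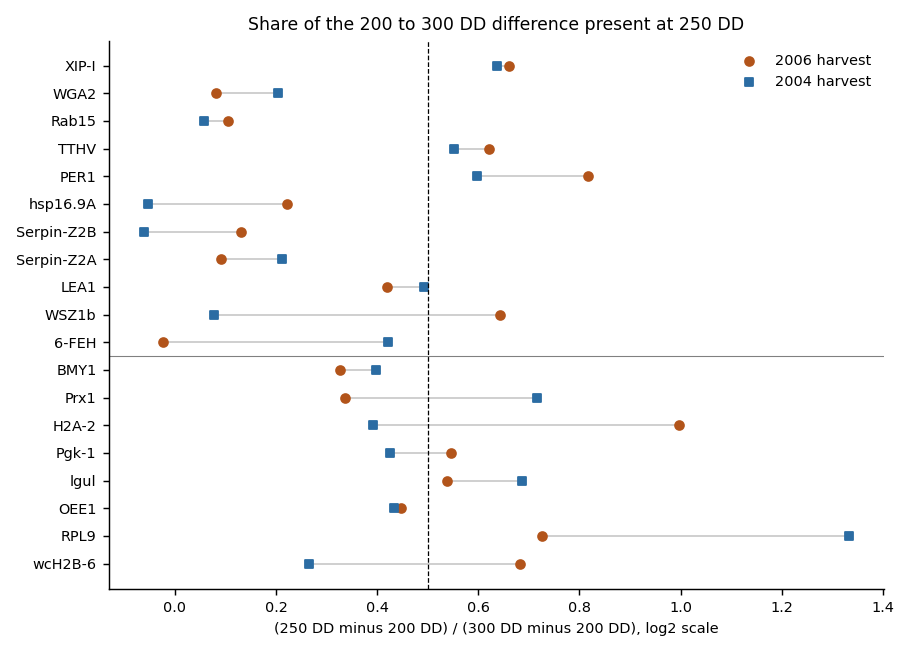
Share of the log2 difference between 300 and 200 DD that was present at 250 DD (horizontal axis) for the 11 higher genes (above the line) and 8 lower genes (below it). Circles are the 2006 and squares the 2004 harvest, and the dashed line marks 0.5. Rab15, WGA2 and the Z2 serpins lie below 0.25 in both harvests, XIP-I, TTHV and PER1 above 0.5 in both, and H2A-2 and WSZ1b are far apart between harvests.

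The harvests differed more at 200 DD than at 300 DD in the higher set. The median gap between 2006 and 2004 over the 473 higher probe sets was -0.18 at 300 DD and -0.70 at 200 DD, and the median difference was 2.61 in 2006 and 1.97 in 2004, larger in 2006 for 354 of them. In the 484 lower probe sets the gap was 0.48 at 300 DD and 0.47 at 200 DD, and the median difference was -1.93 in 2006 and -1.96 in 2004. The mean hybridization control was 10.60 in 2006 and 10.97 in 2004 at 300 DD, against 9.33 and 10.67 at 200 DD, so the 2006 array of 200 DD was the lowest of the 4. The mean poly(A) control was 5.45 and 10.67 at 300 DD, against 4.59 and 10.61 at 200 DD for the same harvests, so at these stages it separated the harvests and not the stages. At 250 DD it was 8.53 in 2006 and 9.86 in 2004, so the 2006 array there stood apart from the other 2006 arrays. The hybridization control at 250 DD was 9.44 in 2006 and 10.05 in 2004. Every 2006 share above rests on the 2006 array of 250 DD. On that array the 3' control probe set of sucrose synthase exceeded the 5' one by 3.14, against 4.30 to 5.10 on the other arrays of 200 to 300 DD. The 18S rRNA control was 4.77 in 2006 and 7.42 in 2004 at 300 DD, against 4.24 and 8.65 at 200 DD. The part of harvest, age within stage and these control values in the results was not tested.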

How the data were processed

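Total RNA of grain was hybridized to 10 Affymetrix wheat arrays. The authors deposited log2 values made with GCRMA, which corrects background from probe sequence, applies quantile normalization and gives 1 value per probe set (version not given in the sources used here). Arrays carry no read depth, and their number limits the precision. The deposited values were used as they were, without the 111 control probe sets. Replicate numbers were tied to harvests through the degree days in the labels and the study's methods. The correlation of the deviations of same-numbered arrays across probe sets was 0.441.

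Stages were compared with limma 3.58.1 in R 4.3.3, with harvest as a block, Benjamini-Hochberg adjustment over 22465 probe sets and a threshold of 0.05. This was the planned test. The fit with the spread of 8 arrays was listed beside it as an alternative. It was given its place in the text, and the rule of 1 in both harvests was added, after the planned test had called 0 probe sets. Standard errors in the text are those of the 8-array fit. That fit lets the 250 DD arrays into the spread. Scripts were tested on simulated data.

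Members, gene lists and comparisons were chosen with earlier results of these data known. The lists hold 88 genes in 12 groups. Named genes were those with a gene symbol, up to 12 in each direction by size of difference with at least 1 in both harvests, 1 probe set per gene (the brightest), plus up to 4 per list and the members of small counts. The rule put called genes first, and since the planned test called none, all were taken by size. The 2 unnamed probe sets in each direction were taken from the 8-array calls. Second probe sets of XIP-I, Rab15, 6-FEH, Prx1, lgul and H2A-9 were chosen after their values were seen. An ID ending in _a_at, _s_at or _x_at marks probes shared by more than 1 transcript. Gene names came from the platform annotation, in which 1273 probe sets had 1 gene, 0 several and 59906 none, and 1272 matched RefSeq.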

Additional observations from a re-analysis of the deposited data

Results flagged for a closer look

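WZF1 moved in opposite directions in the 2 harvests: the difference between 300 and 200 DD was 2.28 in 2006 and -1.54 in 2004 on the log2 scale, from 1 array per stage and harvest. The difference between the harvests was not tested.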

How the results depend on the processing

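The planned test on 4 arrays with the replicate block called 0 higher and 0 lower. It also called 0 and 0 with no filter (61179 probe sets), with a trend or robust prior, with Bonferroni adjustment, with the methods' t-test on a variance per probe set, and, with no replicate block, with any 1 of the 4 arrays left out (range 0 to 0). Other settings gave calls: no replicate block 5 higher and 0 lower, a minimum of 6 gave 108 and 109, quantile normalization 172 and 143, arrays centred on their medians 80 and 60, and the methods' t-test with a common variance 919 and 900, or 382 and 278 after Bonferroni adjustment. The replicate block with the spread of 8 arrays gave 473 and 484. The number higher thus ran between 0 and 919 with the setting. The causes were not tested.

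The alternatives to the 8-array fit and to the rule on both harvests were chosen after seeing the data. The 8-array counts were 188 and 127 with no replicate block, 8 and 7 with no filter, 174 and 169 without the 250 DD arrays, 10 and 2 after Bonferroni adjustment, and 1 and 0 with all 10 arrays, where 100 DD replicate 2 stands apart (r = 0.607 with 100 DD replicate 1 and 0.986 with 500 DD replicate 2). With each of the 8 arrays left out in turn they ranged from 15 to 535 higher and from 1 to 491 lower. They were 541 and 557 with a minimum of 6, 621 and 482 with centring, and 583 and 609 with a trend prior. The rule of 1 in both harvests, with 702 higher and 806 lower, gave 244 and 189 at 2, 789 and 717 with centring, 790 and 712 with quantile normalization and 560 and 551 with a minimum of 6, so the balance of directions is not settled.

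The direction of WZF1 reversed to -1.54 in the 2004 harvest alone, and, with no replicate block, to -0.35 without 300 DD replicate 2 and -2.26 without 200 DD replicate 1. That of tubb1 reversed to -0.0134 in the 2006 harvest alone, and that of eIF-2-beta to 0.0593 and 0.022, with no replicate block, without 300 DD replicate 2 and without 200 DD replicate 1. Under quantile normalization or centring the median of all probe sets was -0.02 in place of -0.09, and no list in the plot of lists changed the sign of its median. With shared-probe IDs left out, the median was -0.0019 in place of 0.32 for gluten proteins and -0.25 in place of 0.33 for starch, sucrose and fructan.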
